A study of Mus musculus with 117 samples.

Results

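The motile cilia genes described here were Foxj1 and all protein-coding mouse genes named Cfap, Dnah or Dnai plus a number in the annotation used. Dnai1 and Dnai2 were found through synonyms, and other genes listed under another symbol were not sought. The rule used names alone and no measured value. It found 46 genes among the 27179 in the count files, of which 25275 carried a name in the annotation. They comprised 31 Cfap genes, 12 Dnah genes, 2 Dnai genes and Foxj1.

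RNA was taken from the spinal cord of RiboTag mice of 2 lines. In RiboTag mice, Cre recombinase switches on a haemagglutinin (HA) tag on a ribosomal protein, so that antibody against HA pulls down the RNA being translated in the Cre-expressing cells. In the Aldh1l1-CreERT2 line, Cre is driven by Aldh1l1 and was switched on by tamoxifen in young adults, so that mature astrocytes were tagged. In the mGfap-Cre 73.12 line, Cre is driven by a mouse Gfap promoter and acts from early life, so that cells descended from Gfap-expressing progenitors also carry the tag. Every animal of both lines thus carried the RiboTag allele and a Cre transgene, controls included, and the adult animals of the Aldh1l1 line all had tamoxifen. Adults of the injured groups received a crush spinal cord injury (SCI). Per the study's methods, the tissue taken held both the lesion core and the border tissue next to it.

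There were 117 libraries in 28 groups, of which 70 were RiboTag libraries (the pulled-down RNA, labelled astrocytes) and 47 were flow-through libraries (RNA left after the pull-down from the same animals, labelled flow). The Aldh1l1 line had uninjured females and 6 female groups after SCI, taken 2 days (d) after it, then 5 d, 14 d, 28 d, 42 d and finally 70 d after it, with 4 animals a group and 5 at 2 d, and males at 5 d and 14 d with 4 each. The mGfap line had uninjured animals at postnatal day (P) 63 (3 males and 2 females) and 5 females at 14 d after SCI. It also had RiboTag libraries, with no flow-through, at P0 (4 males), P3 (3), P7 (3), P14 (5), P21 (4) and P35 (4), with both sexes from P3 on. Sex therefore differed between the 2 uninjured groups, and one flow-through library of the female 5 d group carries a male label. Nothing in the labels ties replicates of a group to separate litters or surgery days, so the p-values measure the spread between these animals.

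Libraries held 40710428 to 136008399 counted read pairs, with a median of 95831369, and no pair of libraries held identical counts. The labelled cell type was visible in the data. The summed level of 8 astrocyte markers ran from 19397 to 22823 CPM (read counts scaled to the size of each library) in uninjured Aldh1l1 RiboTag libraries against 814 to 1077 CPM in their flow-through. Markers of oligodendrocytes (5 genes) were still present in those RiboTag libraries at 3007 to 7558 CPM, and markers of ependyma (8 genes) at 21.8 to 29.1 CPM. In such pooled tissue, a lower level can mean fewer cells of a type or less RNA per cell, and these cannot be told apart. Levels below are CPM on one scale across all 117 libraries. Levels are compared between genes only as FPKM, the same value per kilobase of exon.

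A motile cilium is a hair-like projection whose core, the axoneme, is a ring of doublet microtubules around a central pair. Dynein arms bound to the doublets slide them past each other to make the cilium beat. The outer and inner arms are built from heavy chains (Dnah genes), which are the motors, and intermediate chains such as Dnai1 and Dnai2, which anchor the outer arm. Many Cfap genes (cilia and flagella associated proteins) encode the scaffold: proteins inside the doublets, the central apparatus, the radial spokes and the bases of the inner arms. Foxj1 is the transcription factor that switches on the motile cilium programme, together with RFX factors. In the spinal cord, cells with motile cilia are the ependymal cells that line the central canal, whereas most other cells, astrocytes included, have a single immotile primary cilium without dynein arms. By role, the genes were grouped as Foxj1 (1), outer arm heavy chains (5), inner arm heavy chains (6), Dnah14, whose arm was not assigned (1), intermediate chains (2), doublet microtubule proteins (7), central apparatus (9), radial spoke (2), inner arm tether and modifier proteins (5), arm assembly (2) and other Cfap genes (6).

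Because the genes share a known regulatory programme, their promoters were searched for 2 short motifs on both strands. One was GTTGCCA, part of the site bound by RFX factors, and the other TGTTTAC, the core bound by forkhead factors such as Foxj1. The motifs do not overlap each other. A window from 250 bases before to 50 bases after the start was available for 37 of the 46 genes in the RefSeq table for GRCm38.p6. GTTGCCA or its reverse complement stood in a window of 8 of the 37 genes (21.6%), against 1358 of 27025 genes (5.02%). TGTTTAC or its reverse complement stood in a window of 3 of the 37 genes (8.11%), against 1095 of 27025 (4.05%). A match describes the letters and is not evidence that a factor binds there. The 150 bases before the start are shown for 4 genes described below, read 5′ to 3′ on the strand of the gene, with the motif or its reverse complement in capitals. Cfap161, which encodes a protein inside the doublets, held 3 RFX motifs at chr7:83794840-83794989 (minus strand). Cfap300, an arm assembly factor, held 1 at chr9:8042876-8043025 (minus strand). The third is Cfap20, a doublet protein present in many cell types, with 1 at chr8:95434870-95435019 (minus strand). The fourth is Cfap43, an inner arm tether protein, with the forkhead core at chr19:47837362-47837511 (minus strand).
Cfap161: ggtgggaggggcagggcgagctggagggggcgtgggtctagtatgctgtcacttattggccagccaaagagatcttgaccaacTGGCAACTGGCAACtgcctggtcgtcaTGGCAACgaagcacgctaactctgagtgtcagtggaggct
Cfap300: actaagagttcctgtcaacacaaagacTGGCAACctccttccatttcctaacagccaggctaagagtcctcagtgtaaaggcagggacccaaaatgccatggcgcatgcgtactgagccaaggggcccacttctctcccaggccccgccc
Cfap20: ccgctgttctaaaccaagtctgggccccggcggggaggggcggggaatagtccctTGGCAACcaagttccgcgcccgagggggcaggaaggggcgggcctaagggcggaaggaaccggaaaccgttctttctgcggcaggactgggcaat
Cfap43: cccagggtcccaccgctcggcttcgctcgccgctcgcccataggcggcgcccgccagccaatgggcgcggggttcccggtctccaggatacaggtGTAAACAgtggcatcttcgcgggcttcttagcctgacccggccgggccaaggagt

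Levels per length spanned a wide range within the set. In uninjured Aldh1l1 RiboTag libraries, Foxj1 (chr11:116330704-116335499, GRCm38.p6) had the highest mean level, 28.1 FPKM ± 2.59 (SD, n = 4). It was followed closely by Cfap36 (27.8 FPKM) and Cfap298 (27.6 FPKM), then by Cfap20 (15.001 FPKM) and Dnai1 (13.8 FPKM). Cfap36, Cfap298 and Cfap20 are expressed in many cell types. Structural genes of the axoneme stood much lower, with Cfap126 at 3.70 FPKM, Dnai2 at 1.83 FPKM, Cfap45 at 0.352 FPKM, Cfap52 at 0.263 FPKM, Dnah9 at 0.0894 FPKM and Dnah5 at 0.0252 FPKM. In uninjured mGfap RiboTag libraries the same few genes stood first, with Cfap298 at 29.8, Foxj1 at 29.3 and Cfap36 at 28.5 FPKM. There, however, Cfap126 stood at 7.39, Cfap45 at 2.31 and Cfap52 at 1.87 FPKM.

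The first comparison asked whether the 2 lines capture the motile cilia genes alike in uninjured adults. In RiboTag libraries, structural genes of the cilium were higher in the mGfap line, whereas Foxj1 and both intermediate chains were not called different. All 46 genes could be tested with edgeR's quasi-likelihood test at an adjusted p under 0.01, and 19 were higher in the mGfap line, against 5.54% of all genes tested. One gene, Cfap410, was lower, against 6.86% of all genes tested. The median log2 difference of the 46 genes was 1.35, beside −0.07 over all genes tested. By role, 6 of 7 doublet microtubule genes, 5 of 12 heavy chains, 3 of 9 central apparatus genes, 1 of 5 inner arm tether and modifier genes, 1 of 2 radial spoke genes and neither intermediate chain were higher. Because the groups differed in sex, the fit was repeated with sex as a term, and 15 genes were then higher and 0 lower. Cfap410 passed in neither that fit nor most fits that left out a library. The mGfap animals, at P63, were also younger than the Aldh1l1 mice as the study's results section describes them. No age is labelled for the Aldh1l1 line, and line and age cannot be told apart.

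Cfap52 and Cfap45, proteins inside the doublet microtubules, showed the pattern in every animal. Cfap52 (chr11:67924806-67965669) stood at 0.782, 0.411, 0.580 and 0.566 CPM in the 4 Aldh1l1 libraries and at 3.00, 3.71, 4.99, 5.13 and 3.96 CPM in the 5 mGfap libraries. The groups did not overlap, and the log2 difference was 2.79 ± 0.22 (SE, adjusted p = 6.9e-08). Cfap45 (chr1:172521130-172545870) stood at 0.447, 0.530, 1.04 and 0.553 CPM against 3.04, 5.44, 3.37, 5.39 and 3.81 CPM, again without overlap, a log2 difference of 2.67 ± 0.28 (adjusted p = 2.4e-06). Cfap161 differed by 2.93 ± 0.24 (adjusted p = 1.3e-07) on the log2 scale. Cfap77 (chr2:28955481-29055066), another doublet protein, had 2 counts in all 4 Aldh1l1 libraries together and 419 in the 5 mGfap libraries. Its ratio was 217 with a 95% exact interval of 59.7 to 1798, which covers counting error only. Cfap126 (chr1:171113912-171126956), a partner of the doublets in multiciliated cells, stood at 8.47, 6.71, 7.26 and 6.59 CPM against 12.8, 17.1, 15.5, 14.8 and 12.4 CPM. The groups were separate, with a smaller log2 difference of 0.96 ± 0.19 (adjusted p = 0.0013). It did not pass with sex as a term (0.86, adjusted p = 0.029).

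Among the motors, Dnah5 (chr15:28154854-28472045), an outer arm heavy chain, stood at 0.469, 0.422, 0.207 and 0.500 CPM in Aldh1l1 libraries and at 1.499, 4.00, 4.42, 4.23 and 3.42 CPM in mGfap libraries. The first mGfap library was the lowest of its group and still lay above all Aldh1l1 libraries (log2 difference 3.10 ± 0.39, adjusted p = 1.5e-05). Dnah9 (chr11:65831324-66168581), also an outer arm heavy chain, stood at 1.05, 0.931, 1.66 and 1.30 CPM against 3.27, 3.25, 3.21, 3.31 and 3.73 CPM (1.40 ± 0.22, adjusted p = 0.00016). The inner arm heavy chain Dnah6 differed by 3.79 ± 0.46 (adjusted p = 1.2e-05) and Dnah12 by 2.34 ± 0.58 (adjusted p = 0.0068). Cfap54, a central apparatus protein, had 0.134, 0.119, 0.166 and 0 CPM against 0.410, 1.09, 1.02, 0.755 and 0.939 CPM, with no overlap (2.94 ± 0.69, adjusted p = 0.0046). Cfap43, which ties inner arm dynein to the doublet, stood at 1.00 to 1.84 CPM against 4.28 to 7.19 CPM (1.99 ± 0.25, adjusted p = 1.7e-05). The largest fitted differences after Cfap77 were those of Cfap58 (5.00 ± 1.31, adjusted p = 0.0097) and Cfap73 (4.21, adjusted p = 0.022, not called).

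Foxj1 itself stood at 80.1, 69.7, 86.1 and 74.2 CPM in Aldh1l1 libraries and at 76.4, 78.2, 76.9, 87.4 and 84.7 CPM in mGfap libraries. The groups overlapped almost wholly, with a log2 difference of 0.02 ± 0.10 (adjusted p = 0.93). Dnai1 (chr4:41569647-41638158) was fitted at −0.45 ± 0.20 (adjusted p = 0.11) and Dnai2 at 0.33 ± 0.10 (adjusted p = 0.026), so that neither was called. The broadly expressed Cfap20, Cfap298 and Cfap36 were fitted at −0.02, 0.07 and −0.00. The lowest fitted values were those of Dnah8 (−1.004, adjusted p = 0.30), Cfap74 (−0.61, adjusted p = 0.016) and Dnah17 (−0.47, adjusted p = 0.81). Dnah17 and Dnah8 encode heavy chains best known from sperm.

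Markers of ependyma differed between the lines in the same libraries. Of 8 markers, 7 were higher in the mGfap line, and their summed level ran from 21.8 to 29.1 CPM in Aldh1l1 and from 75.4 to 86.7 CPM in mGfap libraries. Of these 8 markers, Tmem212 and Pifo were at or near 0 in uninjured Aldh1l1 RiboTag libraries (0.134, 0.065, 0 and 0 CPM for Tmem212, at most 0.0433 CPM for Pifo). The other markers made up nearly all of the summed level there. In mGfap libraries Tmem212 stood at 6.12, 3.77, 6.07, 6.36 and 5.11 CPM. Oligodendrocyte markers also differed, with 3 of 5 higher in the mGfap line, at 8574 to 11943 CPM in sum. The part of either cell type in the differences was not tested. In flow-through libraries of the same animals, 0 of 45 motile cilia genes tested were higher in the mGfap line with edgeR and with DESeq2 (5.71% of all genes), 2 were lower (2.99% of all genes), and 14 had an unadjusted p under 0.05. The 2 were Dnai1 (log2 difference −0.72 ± 0.18, adjusted p = 0.0088) and Cfap126 (−0.71 ± 0.16, adjusted p = 0.0046). Neither passed with sex as a term, or when 1 of Aldh1l1 libraries 1, 3 and 4 or mGfap libraries 2, 3 and 5 was left out.

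**Figure D1:**
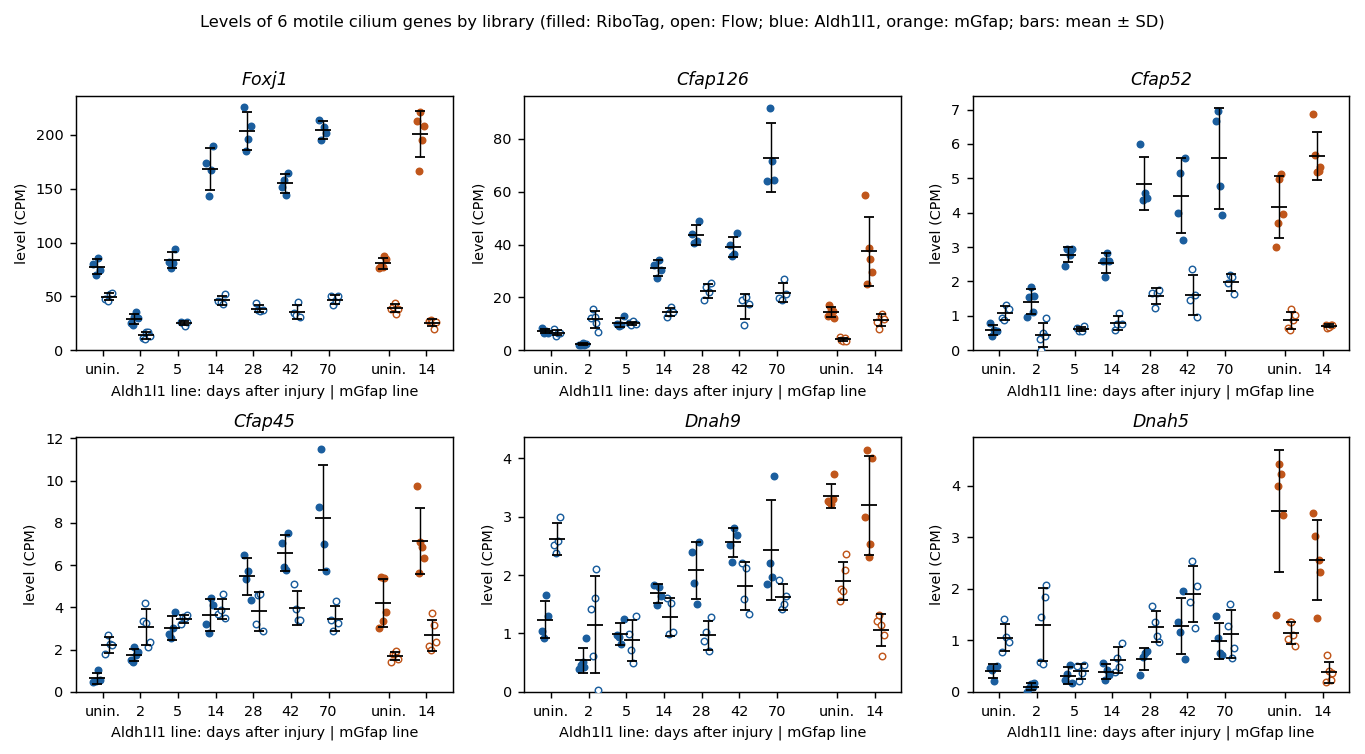
Levels in CPM (y axis, linear) of Foxj1, Cfap126, Cfap52, Cfap45, Dnah9 and Dnah5 in each library, with RiboTag libraries filled and flow-through libraries open, the Aldh1l1 line in blue and the mGfap line in orange, and bars for the mean ± SD. Foxj1 stood alike in uninjured RiboTag libraries of both lines, while Cfap52, Cfap45, Dnah9 and Dnah5 stood higher in the mGfap line, and in Aldh1l1 RiboTag libraries Foxj1 and Cfap126 fell at 2 d and stood above uninjured libraries from 14 d on.

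The second comparison set RiboTag libraries against flow-through of the same animals, which asks which RNA the pull-down enriched. The main test did not pair the libraries of an animal, and pairing them as blocks was an alternative. In uninjured Aldh1l1 animals, most called motile cilia genes were lower in the RiboTag libraries. Of 45 tested genes, 23 were lower (31.3% of all genes were) and 3 were higher (30.7% of all genes were), and the median log2 difference was −1.42, beside −0.08 over all genes. The 3 higher genes were Dnai1 (2.82 ± 0.15, adjusted p = 1.3e-08), Dnai2 (1.73 ± 0.17, adjusted p = 2.3e-06) and Foxj1 (0.61 ± 0.08, adjusted p = 4.8e-05). Foxj1 stood above its own flow-through in 4 of 4 animals, by 1.39 to 1.69 times. Dnah9 stood at 0.931 to 1.66 CPM in RiboTag and at 2.38 to 3.00 CPM in flow-through libraries, and was lower in the RiboTag libraries (−1.11 ± 0.24, adjusted p = 0.0015), as were Dnah5 (−1.42 ± 0.39, adjusted p = 0.0065) and Cfap43 (−1.31 ± 0.24, adjusted p = 0.00046). Cfap77 had 205 counts in the flow-through and 2 in the RiboTag libraries, a ratio of 69.4 (95% exact interval 18.96 to 576.7). Cfap58 (−5.08) and Cfap46 (−3.63) followed. The summed level of the 12 heavy chains ran from 5.28 to 7.72 CPM in RiboTag and from 17.1 to 21.9 CPM in flow-through libraries, so that the 2 kinds of library did not overlap.

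In uninjured mGfap animals the balance was different. Of 45 tested genes, 20 were higher in RiboTag than in flow-through libraries (32.6% of all genes) and 8 were lower (35.2% of all genes), with a median of 0.62, beside −0.09 over all genes. Of the 7 doublet genes, 6 were higher, among them Cfap52 (2.20 ± 0.25, adjusted p = 1.4e-06) and Cfap126 (1.76 ± 0.14, adjusted p = 2.4e-08). Dnah5 stood at 1.499 to 4.42 CPM in RiboTag and at 0.883 to 1.36 CPM in flow-through libraries, higher by 1.56 ± 0.28 on the log2 scale (adjusted p = 0.00014) and in 5 of 5 animals. There were 8 genes that were lower in RiboTag libraries of the Aldh1l1 line and higher in those of the mGfap line: Cfap45, Cfap53, Cfap77, Cfap161, Cfap299, Dnah5, Dnah6 and Dnah9. Dnai1, Dnai2 and Foxj1 were higher in both. Another 7 genes (Cfap20, Cfap69, Cfap97, Cfap99, Cfap410, Dnah1 and Dnah17) were lower in both. The shares of all genes with such joint calls were not counted. Dnah17 had the lowest fitted value in the mGfap line (−3.40), followed by Cfap99 (−2.58) and Cfap69 (−2.28). Ependymal markers divided in the same animals: 2 of 8 were higher and 5 lower in Aldh1l1 RiboTag libraries, whereas 8 of 8 were higher in mGfap RiboTag libraries. Their part was not tested.

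**Figure D2:**
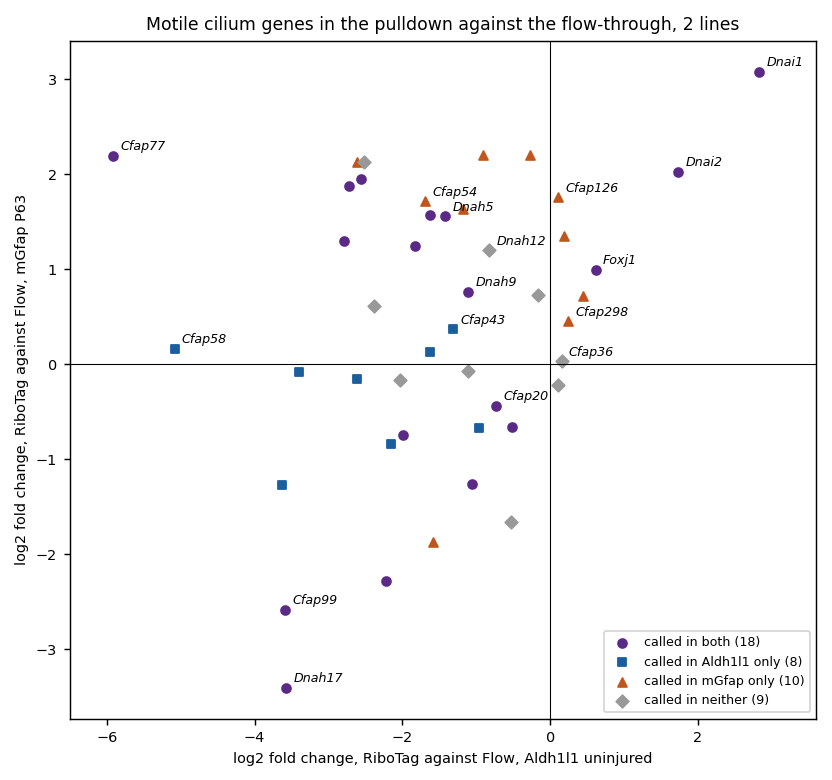
Log2 difference of RiboTag against flow-through libraries for each motile cilia gene in uninjured Aldh1l1 animals (x axis) and in mGfap animals at P63 (y axis), with colours for the genes called in both lines (18), in the Aldh1l1 line alone (8), in the mGfap line alone (10) or in neither (9). The 8 genes in the upper left were lower in Aldh1l1 and higher in mGfap RiboTag libraries, and the share of all genes that did so was not counted.

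The same comparison was made after SCI in the Aldh1l1 line, and a difference between times was not tested. At 2 d, 32 genes could be tested, of which 5 were higher (27.7% of all genes) and 12 lower (28.1%), or 7 lower without the fourth RiboTag library. At 14 d, 10 of 43 were higher (30.7% of all genes) and 17 lower (31.7%). At 70 d, 11 of 43 were higher (22.6%) and 3 lower (23.1%), while 5 were lower when animals were paired as blocks and 1 without the first flow-through library. Foxj1 was higher at each of these times, by 1.01 ± 0.18 at 2 d (adjusted p = 0.0004), 1.76 ± 0.10 at 14 d (adjusted p = 3.3e-09) and 2.07 ± 0.10 at 70 d (adjusted p = 5.7e-08). Cfap65, a central apparatus protein, was lower at each (−3.78, −4.14 and −2.46). Cfap126 was lower in RiboTag libraries at 2 d (−2.44 ± 0.25, adjusted p = 5e-06) and higher at 70 d (1.70). In the mGfap line at 14 d, 22 of 45 were higher (23.3% of all genes) and 4 lower (23.6%), with Cfap54 (3.03 ± 0.63, adjusted p = 0.0014), Cfap52 (2.94 ± 0.18, adjusted p = 3.6e-07) and Foxj1 (2.92 ± 0.14, adjusted p = 1.2e-07) leading.

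The third comparison followed the Aldh1l1 RiboTag libraries after SCI. All times were set against the same 4 uninjured libraries. Of the 46 genes, 44 could be tested, since Cfap47 and Cfap58 were too low. At 2 d, 13 fell (29.9% of all genes did), 5 rose (30.2%) and the others were not called, with a median of −0.58, beside −0.04 over all genes. At 5 d, 6 had risen (28.7% of all genes) and 4 had fallen (28.1%), with a median of 0.03. Risen genes numbered 12 at 14 d (24.5% of all genes), 16 at 28 d (22.8%), 16 at 42 d (23.3%) and 20 at 70 d (23.9%). Of the 44 tested, the shares that fell at 2 d and that rose at 14 d lay near those of all genes. Fallen genes numbered 3 at 14 d (22.8% of all genes), 2 at 28 d (19.1%), 3 at 42 d (20%) and 2 at 70 d (21.5%). The median log2 change was 0.62, 0.82, 1.06 and 1.18 at these 4 times, beside −0.02, 0.01, 0.03 and 0.05 over all genes.

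Foxj1 fell first and rose later. It stood at 80.1, 69.7, 86.1 and 74.2 CPM in uninjured libraries and at 25.7, 23.2, 30.5, 35.7 and 30.3 CPM at 2 d. No 2 d library reached an uninjured one, and the log2 change was −1.40 ± 0.10 (adjusted p = 5.5e-13). At 5 d Foxj1 stood at 76.8 to 93.998 CPM and was not called (0.10, adjusted p = 0.41). At 14 d it stood at 174, 143, 167 and 190 CPM and at 70 d at 214, 195, 208 and 201 CPM, above every uninjured library (1.09 ± 0.11 with adjusted p = 6.1e-10, and 1.43 ± 0.11 with adjusted p = 8.2e-12). The change was 1.41 at 28 d and 1.04 at 42 d.

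Of the 7 doublet microtubule genes, 7 rose at 14 d and again at 70 d, while 6 rose at both times in between. Cfap126 fell from 6.59 to 8.47 CPM in uninjured libraries to 1.97, 2.00, 2.82, 1.83 and 2.52 CPM at 2 d (−1.69 ± 0.13, adjusted p = 4.3e-12). It then stood at 9.11 to 13.03 CPM at 5 d, 27.3 to 34.2 CPM at 14 d, 40.7 to 48.8 CPM at 28 d, 35.8 to 44.3 CPM at 42 d and 64.0, 91.7, 71.6 and 64.3 CPM at 70 d. The uninjured and 70 d libraries were far apart, a log2 change of 3.35 ± 0.14 (adjusted p = 8.8e-17). Cfap45 and Cfap52 did not share the fall at 2 d and rose at all 6 times. Cfap45 reached 8.77, 11.5, 7.00 and 5.74 CPM at 70 d (3.70 ± 0.26, adjusted p = 1.9e-12), and Cfap52 reached 6.66, 6.96, 4.76 and 3.93 CPM (3.28 ± 0.25, adjusted p = 8.1e-12). Cfap161 fell by 1.76 on the log2 scale at 2 d and stood at 4.59, 5.26, 7.59 and 3.46 CPM at 70 d, against 0.425 to 0.632 CPM in uninjured libraries (3.27 ± 0.46, adjusted p = 6.7e-07). Cfap77 had 147 counts at 70 d against 2 in uninjured libraries, a ratio of 82.8 (95% exact interval 22.5 to 690.3), but its 4 libraries at 70 d stood far apart, at 0.9749, 0.412, 0.359 and 0.0475 CPM. Its ratio was 6.86 at 2 d (1.59 to 61.8), 32.8 at 5 d (8.74 to 275.9), 18.3 at 14 d (4.73 to 156.5), 68.6 at 28 d (18.6 to 572.0) and 33.01 at 42 d (8.68 to 280.0). Cfap20 was not called at 2 d (−0.03) and rose at 14 d (0.57) and 70 d (0.51 ± 0.11, adjusted p = 0.00042).

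Heavy chains moved less uniformly. Dnah9 stood at 0.396, 0.452, 0.503, 0.424 and 0.915 CPM at 2 d, below every uninjured library (−1.18 ± 0.26, adjusted p = 0.0002), and at 1.85, 2.21, 1.97 and 3.69 CPM at 70 d, above every one (1.00 ± 0.27, adjusted p = 0.0022). Dnah5 stood at 0, 0.0822, 0.151, 0.0877 and 0.173 CPM at 2 d, where it fell by 1.98 ± 0.54 on the log2 scale (adjusted p = 0.002). It rose at 42 d (1.72 ± 0.54, adjusted p = 0.0085) and was not called at 70 d (1.34, adjusted p = 0.034). Dnah1, an inner arm heavy chain, was not called at 2 d and rose at the 5 later times, from 0.604, 1.39, 0.736 and 1.74 CPM in uninjured libraries to 6.47, 4.85, 5.21 and 7.78 CPM at 14 d (2.42 ± 0.26, adjusted p = 4.3e-09). Dnah2 rose from 14 d on (1.54 at 14 d). Dnah14 went the other way and fell at 14, 28, 42 and 70 d, from 0.922 to 1.28 CPM in uninjured libraries to 0.149 to 0.339 CPM at 14 d (−2.20 ± 0.52, adjusted p = 0.00065). Dnah12 was not called at 2 d (−1.11) or 70 d (0.30). Of the 8 tested central apparatus genes, 3 fell at 2 d and 1, Cfap70, rose at 70 d (1.53). Cfap54 was fitted at 2.32 at 70 d (adjusted p = 0.032) and was not called.

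The 2 intermediate chains of the outer arm did not move alike. Dnai1 stood at 41.0, 36.5, 36.7 and 37.4 CPM in uninjured libraries and at 2.93, 3.51, 3.06, 3.85 and 2.83 CPM at 2 d, the most extreme fall of the set at that time (−3.54 ± 0.14, adjusted p = 8.8e-19). It was lower at all 6 times, and still at 70 d stood at 22.998, 28.6, 19.7 and 18.5 CPM, under every uninjured library (−0.73 ± 0.13, adjusted p = 3.6e-05). Dnai2 fell by 0.50 ± 0.13 on the log2 scale at 2 d (adjusted p = 0.0015) and was higher at 70 d, at 21.1, 15.9, 18.4 and 19.3 CPM against 10.8 to 11.6 CPM (0.78 ± 0.14, adjusted p = 2.8e-05). Dnai1 shares 15 exonic bases with Enho, which encodes the secreted peptide adropin. Enho stood at 655, 537, 584 and 695 CPM in uninjured libraries and at 88.1, 94.7, 83.4, 121 and 101 CPM at 2 d, a log2 change of −2.65 (adjusted p = 1e-15), and its part in the level of Dnai1 was not tested. Cfap36, a binder of ADP-ribosylation-factor-like GTPases, also overlaps exons of a neighbour. It stood at 104 to 132 CPM in uninjured libraries and at 313.98, 323.1, 330.5, 342.2 and 304.4 CPM at 2 d (1.49 ± 0.11, adjusted p = 5.7e-13), while Ppp4r3b, which shares 1880 exonic bases with it, was fitted at −0.07 (adjusted p = 0.54).

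Across the 4 times from 14 d on, 10 genes rose at every one: Cfap45, Cfap52, Cfap53, Cfap77, Cfap126, Cfap161, Cfap300, Dnah1, Dnah2 and Foxj1. Dnah14 and Dnai1 fell at every one. At 2 d, 7 genes fell that rose at 70 d (Cfap70, Cfap126, Cfap161, Cfap410, Dnah9, Dnai2 and Foxj1). A further 17 genes passed the test at no time, counting Cfap47 and Cfap58, which were not tested. How many of all genes followed each of these patterns was not counted, so the patterns are not set against a background. At 2 d the highest fitted values were of Dnah17 (2.59, adjusted p = 0.015), Cfap77 (2.51, adjusted p = 0.053) and Cfap157 (1.89 ± 0.21, adjusted p = 3.7e-09), of which the last passed. Cfap157, a basal body protein, also rose at 14 d (0.73) and 28 d (0.71), and it shares exons with another gene, whose part was not tested. Among the lowest at 2 d were Cfap221 (−2.44, adjusted p = 0.081) and Cfap299 (−2.04, adjusted p = 0.014), neither of which passed. At 5 d the lowest was Cfap65 (−2.37, adjusted p = 0.032). The arm assembly gene Cfap300 rose at 14 d (0.77), 28 d (0.90), 42 d (1.13) and 70 d (0.89), and Cfap298 rose at 2 d (0.44 ± 0.11, adjusted p = 0.00081), fell at 5 d (−0.37) and rose at 70 d (0.59 ± 0.11, adjusted p = 7.4e-05). Cfap43 was not called at 2 d (0.51, adjusted p = 0.063) and rose at 70 d (1.07 ± 0.26, adjusted p = 0.0008).

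Ependymal markers moved in the same libraries. At 2 d, 5 of 8 fell and 1 rose, and at 70 d 8 of 8 had risen. Their sum ran from 21.8 to 29.1 CPM in uninjured libraries, 29.3 to 38.9 CPM at 2 d, 92.6 to 131 CPM at 14 d and 114 to 178 CPM at 70 d. At 2 d the sum lay above every uninjured library although most markers fell, so it did not follow most of its markers there. Astrocyte markers fell at 2 d, from 19397 to 22823 CPM in sum to 4721 to 5681 CPM, and stood at 9555 to 10866 CPM at 70 d. The part of either in the changes was not tested. A list of other motile cilium genes outside the naming rule (52 found, among them tektins, Hydin, Spag genes, Rfx2, Rfx3 and some ependymal markers) was counted beside them. Of 48 tested, 4 rose and 19 fell at 2 d, where 30.2% and 29.9% of all genes did. At 70 d, 32 rose and 1 fell, where 23.9% and 21.5% of all genes did.

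**Figure D3:**
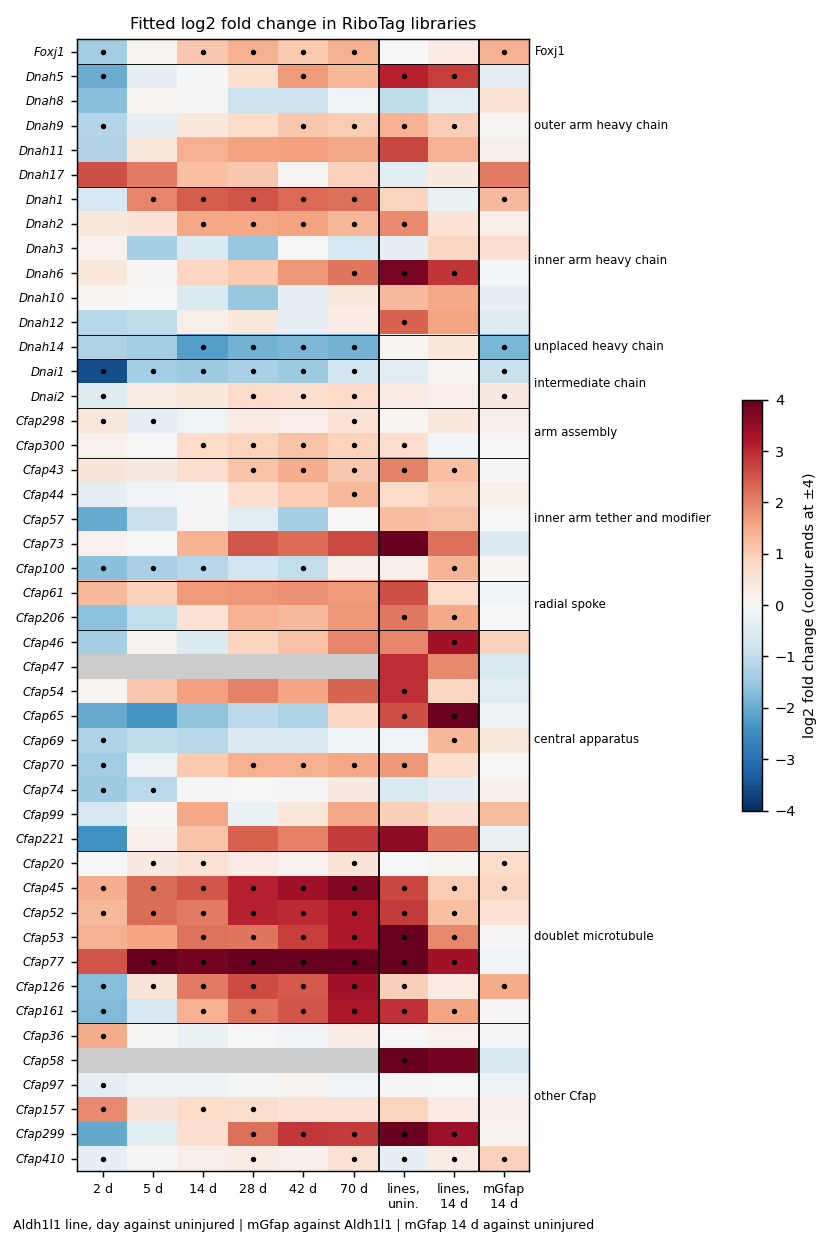
Log2 change of each of the 46 genes, in rows ordered by role, for 6 times after SCI in Aldh1l1 RiboTag libraries and for 3 comparisons with the mGfap line, with red for higher, blue for lower, dots for an adjusted p under 0.01 and grey for not tested. Colours end at 4 in either direction, and the doublet genes form a red block from 14 d on, with 7 of 7 called at 14 d and 70 d.

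In flow-through libraries of the same animals, Foxj1 fell at 2 d and few of the genes were higher later. At 2 d, 15 of 45 tested genes were lower (32.9% of all genes) and 3 higher (32.6%), with a median of −1.05, beside −0.04 over all genes. At 5 d, 7 were lower (21.8%) and 3 higher (27.7%). At 14 d, 4 were lower (19.5%) and 3 higher (24.6%). At 70 d, 4 were lower (15.7%) and 2 higher (21.8%), and the median was −0.04. Foxj1 in flow-through fell from 47.5, 46.1, 52.1 and 53.2 CPM to 11.2, 10.4, 16.7, 17.4 and 13.5 CPM at 2 d (−1.82 ± 0.13, adjusted p = 5.7e-13). At 70 d it stood at 42.2 to 50.2 CPM, overlapping the uninjured range, and was not called (−0.06, adjusted p = 0.73). Cfap126 rose instead at 2 d (0.84 ± 0.20, adjusted p = 0.0004) and at 70 d (1.73 ± 0.21, adjusted p = 7.5e-08), as did Cfap161 at 70 d (1.34 ± 0.32, adjusted p = 0.00095). Cfap43 rose at 2 d, from 2.73 to 4.26 CPM to 8.74, 10.8, 10.3, 9.03 and 8.38 CPM (1.45 ± 0.17, adjusted p = 1.2e-08).

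Several low genes dropped towards 0 in flow-through at 2 d. Cfap73 had 0 counts in the 5 libraries at 2 d and 109 in the 4 uninjured ones, at least 23.7-fold lower with 3 counts as the limit over the group. Dnah12 stood at 0.239 to 0.371 CPM in uninjured flow-through and at 0.183, 0, 0, 0 and 0 CPM at 2 d (−2.97 ± 0.86, adjusted p = 0.0031). Cfap99 (−3.28), Cfap299 (−3.22) and Dnah11 (−3.02) fell as well. Of the broadly expressed genes, Cfap36 fell at 2 d (−0.90 ± 0.11, adjusted p = 1.5e-08), opposite to its rise in RiboTag libraries, and Cfap298 fell (−0.63 ± 0.18, adjusted p = 0.0029), while Cfap20 rose (0.38 ± 0.12, adjusted p = 0.007). Dnai2 rose at 5 d (1.18 ± 0.22, adjusted p = 4.3e-05). From 6 to 16 of the 46 genes had no count at all in single 2 d flow-through libraries, against 0 to 1 in uninjured flow-through. The 2 d flow-through libraries were also shallower, at 40710428 to 75175387 counted read pairs against 99521160 to 115137979, and the library with 16 such genes was the shallowest.

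**Figure D4:**
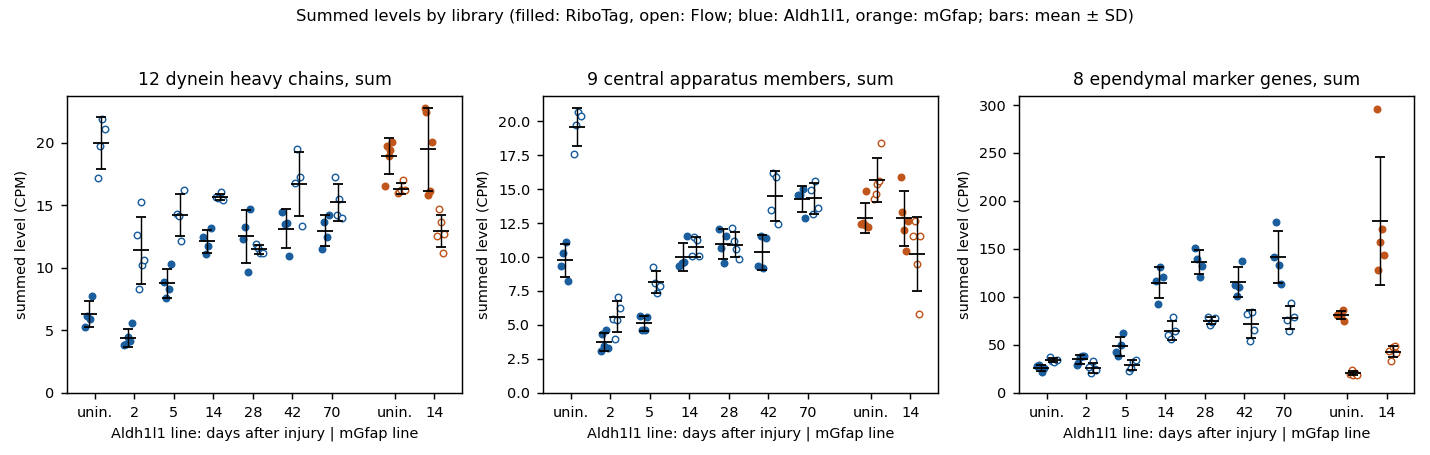
Summed levels in CPM (y axis) of the 12 dynein heavy chains, the 9 central apparatus genes and the 8 ependymal markers in each library, by group along the x axis, with RiboTag libraries filled and flow-through libraries open. Uninjured Aldh1l1 RiboTag libraries stood at 5.28 to 7.72 for the heavy chains, below their flow-through at 17.1 to 21.9, whereas mGfap RiboTag libraries at P63 stood at 16.5 to 20.1.

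The fourth comparison placed both lines side by side at 14 d after SCI. In RiboTag libraries, 16 of 46 genes were higher in the mGfap line (12.0% of all genes) and 0 were lower with edgeR and with DESeq2 (11.4% of all genes), while 28 had an unadjusted p under 0.05. The median log2 difference was 0.98, beside 0.03 over all genes. Without the second Aldh1l1 animal at 14 d, 10 were higher. The highest were Cfap65 (3.93 ± 0.47, adjusted p = 2.1e-06), Cfap58 (3.81, adjusted p = 0.022, not called) and Cfap299 (3.41 ± 0.53, adjusted p = 4.4e-05). Dnah5 stood at 3.46, 3.02, 1.43, 2.56 and 2.32 CPM in mGfap libraries and was higher by 2.77 ± 0.38 on the log2 scale (adjusted p = 1.1e-05), and Dnah9 by 0.98 ± 0.21 (adjusted p = 0.0014). Cfap52 stood at 6.87, 5.67, 5.19, 5.21 and 5.33 CPM against 2.13 to 2.82 CPM, without overlap (1.22 ± 0.20, adjusted p = 8.8e-05). Foxj1 (0.31 ± 0.10, adjusted p = 0.02), Cfap126 (0.33, adjusted p = 0.19), Dnai1 (0.04, adjusted p = 0.90) and Cfap54 (0.84, adjusted p = 0.33) did not pass. Oligodendrocyte markers were much higher in the mGfap line at that time, 23149 to 35308 CPM in sum against 1829 to 2454 CPM, with 5 of 5 called, and ependymal markers with 6 of 8 called. Their part was not tested. In flow-through, 0 of 45 were higher with edgeR and with DESeq2 (0.180% of all genes), 2 were lower (1.30% of all genes) and 9 had an unadjusted p under 0.05. The 2 were Foxj1, at 19.7 to 27.9 CPM in mGfap and 42.8 to 52.2 CPM in Aldh1l1 flow-through (−0.87 ± 0.11, adjusted p = 0.00012), and Cfap161 (−1.11 ± 0.21, adjusted p = 0.0045).

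Within the mGfap line, 7 of 46 genes rose from P63 to 14 d after SCI (27.7% of all genes) and 2 fell (16.4% of all genes). The P63 group held both sexes and the injured group females only, and with sex as a term 5 genes rose and 2 fell. No age is labelled for the injured animals, so that injury and any difference in age cannot be told apart. Foxj1 rose from 76.4 to 87.4 CPM to 213, 166, 221, 195 and 208 CPM (1.42 ± 0.09, adjusted p = 1e-09), and the 2 P63 females stood at 87.4 and 84.7 CPM. Cfap126 rose to 58.6, 25.2, 38.8, 34.6 and 29.7 CPM (1.48 ± 0.18, adjusted p = 1.1e-06), with no overlap in either gene. Cfap20, Cfap45, Cfap410, Dnah1 and Dnai2 rose too. Dnai1 fell (−0.89 ± 0.19, adjusted p = 0.00056), as did Dnah14 (−1.83 ± 0.36, adjusted p = 0.00031). Dnah9 (0.04), Dnah5 (−0.35, adjusted p = 0.37) and Cfap43 (−0.06) did not pass. The first of the 5 injured mGfap libraries had the highest sum of ependymal markers, 295.5 CPM against 128.5 to 170.7 CPM in the other 4, and without it 6 genes rose and 2 fell.

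The difference between the lines in their change at 14 d was itself tested as an interaction. It was below 0, a lower change in the mGfap line, for 4 of 46 genes (4.94% of all genes) and above 0 for 1 (7.71% of all genes), and 17 had an unadjusted p under 0.05. Without the fourth uninjured Aldh1l1 library, 7 were below 0. The 4 were all doublet microtubule genes: Cfap77 (−4.04 ± 0.82, adjusted p = 0.0014), Cfap45 (−1.63 ± 0.37, adjusted p = 0.0031), Cfap52 (−1.57 ± 0.28, adjusted p = 0.00049) and Cfap161 (−1.37 ± 0.31, adjusted p = 0.0038). These had the lower uninjured level in the Aldh1l1 line, as given above. In the mGfap line itself, Cfap45 rose, whereas Cfap77 (−0.16, adjusted p = 0.76), Cfap161 (0.06, adjusted p = 0.84) and Cfap52 (0.55, adjusted p = 0.017) were not called. With sex as a term, 4 were again below 0 and 1 above. Cfap410, encoding a protein of the cilium base, changed more in the mGfap line (0.66 ± 0.12, adjusted p = 0.00047). Foxj1 did not pass (0.30, adjusted p = 0.14), nor did Cfap53 (−2.15, adjusted p = 0.028) or Cfap54 (−2.10, adjusted p = 0.10).

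The fifth comparison followed the mGfap RiboTag libraries from birth. From P0 to P7, 5 of 46 genes rose (12.5% of all genes) and 1 fell (7.54% of all genes), with a median of 0.78, beside 0.00 over all genes. Foxj1 stood at 26.5, 41.0, 9.598 and 53.0 CPM at P0 and at 76.3, 60.6 and 73.5 CPM at P7. All P7 libraries lay above all P0 libraries, and the log2 change was 1.10 ± 0.29 (adjusted p = 0.0044). Cfap157 (1.58 ± 0.40, adjusted p = 0.0036) and Cfap36 (0.44 ± 0.10, adjusted p = 0.0013) rose as well. Dnah3, an inner arm heavy chain, and Cfap61, a radial spoke protein, had 0 counts in the 4 P0 libraries and 81 and 60 counts in the 3 P7 libraries, at least 45.1-fold and at least 33.4-fold higher with 3 counts as the limit over the group. Cfap20 fell (−0.49 ± 0.11, adjusted p = 0.0016). The 4 P0 libraries differed widely among themselves. Dnai1 stood at 0.251, 4.74, 0.0239 and 11.3 CPM at P0, 12.5, 16.4 and 17.5 CPM at P7 and 30.9 to 34.95 CPM at P14, and the change from P0 to P7 was not called (1.91 ± 0.76, adjusted p = 0.058). Dnah5 stood at 0, 3.00, 0 and 1.96 CPM at P0 and Cfap54 at 4.55, 5.99, 0 and 2.18 CPM. The third P0 library was the lowest for Foxj1, Dnai1, Dnah9 and Cfap126, and had an ependymal sum of 12.2 CPM against 34.5 to 39.7 CPM in the other 3. The counts of called genes turned on single libraries: 1 gene rose and 0 fell without the third P7 library, 10 rose without the second P0 library, and 3 fell without the fourth P0 library. All P0 animals were male, and with sex as a term 5 rose and 1 fell.

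Later steps moved few of the genes. From P7 to P21, 0 of 46 rose with edgeR and with DESeq2 (8.01% of all genes), 1 fell (7.33% of all genes) and 6 had an unadjusted p under 0.05. The one was Cfap20, at 28.7, 28.96 and 27.5 CPM at P7 and 20.8, 19.2, 18.8 and 21.7 CPM at P21 (−0.50 ± 0.11, adjusted p = 0.0014), which did not pass without the first or the second P7 library. From P21 to P63, 2 rose (3.80% of all genes), 0 fell with edgeR and with DESeq2 (5.42% of all genes) and 7 had an unadjusted p under 0.05. They were Cfap298 (0.48 ± 0.11, adjusted p = 0.0035) and Dnai2 (0.65 ± 0.17, adjusted p = 0.0067). Neither passed without any 1 of P21 libraries 2, 3 and 4 or P63 library 4. Foxj1 stood at 43.9 to 58.5 CPM at P3, 51.4 to 79.0 CPM at P14, 73.8 to 88.9 CPM at P21 and 81.1 to 102 CPM at P35, and was not called from P7 to P21 (0.18, adjusted p = 0.75). Cfap126 was fitted at 0.92 from P21 to P63 (adjusted p = 0.015) and was not called. Ependymal markers summed to 78.6 to 107 CPM at P14. Of 49 other motile cilium genes tested, 7 rose from P0 to P7 (12.5% of all genes) and 1 rose from P21 to P63 (3.80% of all genes).

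**Figure D5:**
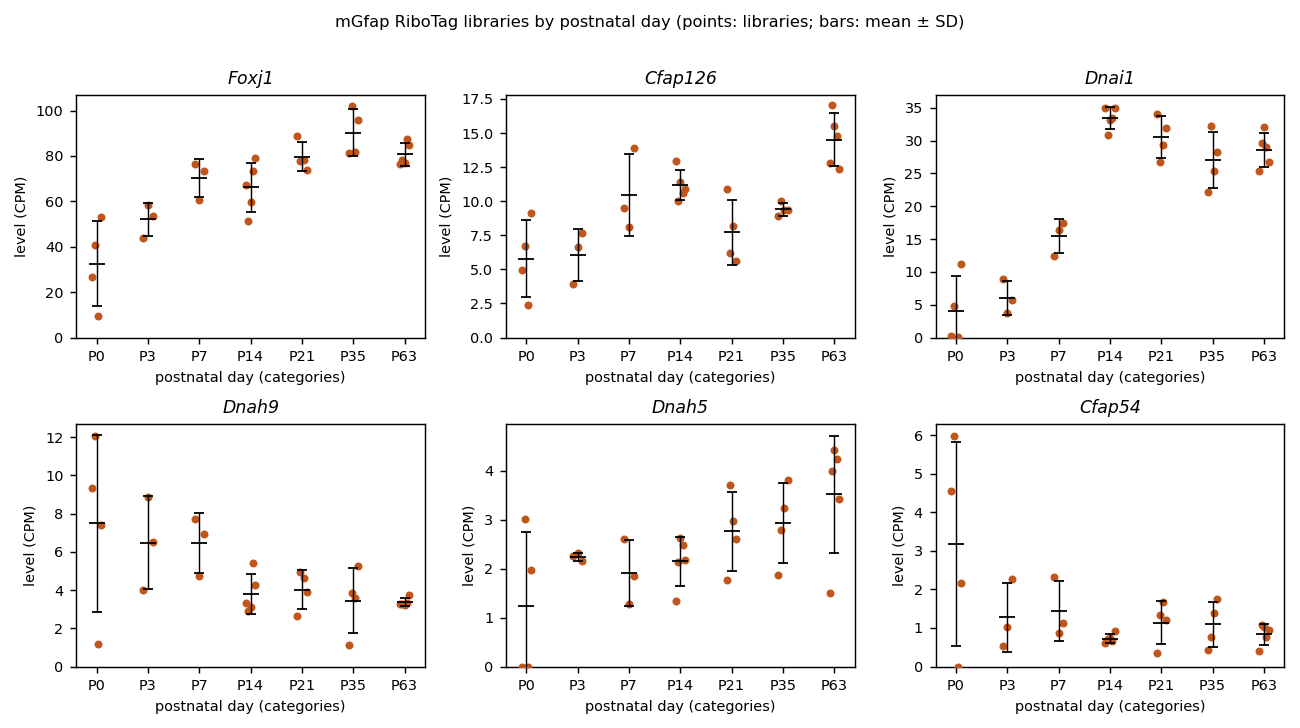
Levels in CPM (y axis) of Foxj1, Cfap126, Dnai1, Dnah9, Dnah5 and Cfap54 in each mGfap RiboTag library at 7 postnatal days from P0 to P63 (x axis), with bars for the mean ± SD. Foxj1 ran from 9.598 to 53.0 at P0 and from 60.6 to 76.3 at P7, and the P0 libraries were the most scattered for Dnai1.

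Male Aldh1l1 animals at 5 d and 14 d have no male uninjured group and were not tested. Foxj1 stood at 89.9, 89.3, 79.5 and 88.0 CPM in their RiboTag libraries at 5 d and at 148, 159, 166 and 153.5 CPM at 14 d. These values overlapped those of females at the same times, 76.8 to 93.998 CPM and 143 to 190 CPM.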

How the data were processed

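Poly-A RNA from RiboTag pull-downs and their flow-through was sequenced as paired reads. Per the study's methods, the authors used Trimmomatic for trimming, HISAT2 for alignment to the mm10 build and featureCounts on default settings for reads per gene, which use no strand and drop reads that overlap several genes. The deposited files hold raw counts of 27179 genes for each of 117 libraries. Levels were computed as CPM (counts scaled to library size) on 1 TMM scaling over all libraries, and FPKM per exon length of the annotation.

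Counts were tested with the quasi-likelihood F test of edgeR 4.0.16 (R 4.3.3, limma 3.58.1), two-sided, with TMM scaling, the default filter on low counts and the default prior count. Adjustment was Benjamini-Hochberg over all genes that passed the filter, called at 0.01. Errors of log2 values are standard errors derived from the log2 value and its F statistic (the absolute log2 value over the square root of F). Fits covered whole families: the 7 female Aldh1l1 groups, the 4 groups of both lines, the postnatal groups, and RiboTag against flow-through. Alternatives were DESeq2 1.42.0, its size factors, no filter, 0.05, fits of 2 groups, sex, single libraries left out and replicate blocks. The fit was tested on simulated data. RiboTag and flow-through libraries of 1 number come from the same animal, as the design states. Their deviations from group means, in log2 CPM with a prior count of 2, correlated at −0.0919 to 0.139 at 2 d and at 0.0656 to 0.71 elsewhere. At 2 d, only RiboTag replicate 4 correlated most with the flow-through of its own number. In mGfap P63, replicate 3 did not (0.0656 against 0.0748 for another number). The pairing at 2 d is therefore not borne out by these correlations. Equal numbers in other groups share only a number.

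The members, roles and lists were chosen with earlier results of these data known. Named genes were Foxj1, Dnai1, Dnai2, Dnah5, Dnah9, Dnah12, Cfap43, Cfap54, Cfap126, Cfap20, Cfap36 and Cfap298, with the 3 highest and 3 lowest fitted genes of a comparison. Others were named after their values were seen. The annotation lists Dnai1 and Dnai2 as Dnaic1 and Dnaic2. Planned doublet genes not found under these symbols were Cfap68, Cfap90, Cfap95, Cfap107, Cfap141, Cfap210 and Cfap276. The same held for Cfap91, Cfap251, Dnai3, Dnai4 and Dnai7, so counts by role cover only the genes found.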

Additional observations from a re-analysis of the deposited data

Results flagged for a closer look

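Of 208 pairs of a measure and a group of 4 to 5 libraries, 7 held 1 library far from the rest by Dixon's test at its 95% limit, where chance gives about 1 in 20. Foxj1 stood at 19.7 CPM in mGfap 14 d flow-through replicate 4, against 26.3 to 27.9 CPM in the others. Dnah9 stood at 0.915 CPM in Aldh1l1 2 d RiboTag replicate 5, against 0.396 to 0.503 CPM, and at 3.73 CPM in mGfap P63 RiboTag replicate 5, against 3.21 to 3.31 CPM. Cfap43 stood at 5.84 CPM in mGfap 14 d flow-through replicate 1, against 3.15 to 3.72 CPM. The 12 heavy chains summed to 17.1 CPM in mGfap P63 flow-through replicate 4, against 15.9 to 16.3 CPM. Ependymal markers summed to 38.4 CPM in male Aldh1l1 5 d RiboTag replicate 2, against 49.2 to 50.6 CPM, and to 295.5 CPM in mGfap 14 d RiboTag replicate 1, against 128.5 to 170.7 CPM.

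For 5 genes, the change to 14 d after SCI differed between the lines in the edgeR interaction test. The difference, mGfap minus Aldh1l1 on the log2 scale, was −4.04 for Cfap77 (adjusted p = 0.0014), −1.63 for Cfap45 (adjusted p = 0.0031), −1.57 for Cfap52 (adjusted p = 0.00049), −1.37 for Cfap161 (adjusted p = 0.0038) and 0.66 for Cfap410 (adjusted p = 0.00047). The mGfap control group was of both sexes and the injured one female, and with sex as a term the test again gave 4 genes below 0 and 1 above.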

How the results depend on the processing

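Single-gene results were examined for the named genes and the highest and lowest fitted genes of each comparison. None that was called in the main fit or in the alternative changed direction. Results called in neither were not checked for direction. Among 398 single-gene results, DESeq2 ended 3 calls and added 19, and among 3678 refits without 1 library, 151 calls ended and 25 were added. Counts of motile cilia genes moved as follows, by the alternative and then the comparison. At an adjusted p of 0.05, genes lower numbered 2 between lines uninjured, 8 in the interaction, 7 between lines in flow-through, 9 for RiboTag against flow-through at 70 d, 20, 7 and 5 at 2, 5 and 14 d in RiboTag, 25 at 2 d in flow-through and 2 from P0 to P7. Genes higher at 0.05 numbered 2 in the interaction, 5 for RiboTag against flow-through uninjured, 4 at 70 d in flow-through, 1 from P7 to P21 and 4 from P21 to P63. With DESeq2, lower genes numbered 2 between lines uninjured, 8 in the interaction, 4 between lines in flow-through and 8 for RiboTag against flow-through at 70 d, and higher genes 1 at 5 d in flow-through (also 1 with DESeq2 size factors) and 4 from P21 to P63. With sex as a term, 0 were lower between uninjured lines in either kind of library. With no filter, 1 was lower between lines in flow-through. In fits of the 2 groups alone, flow-through gave 1 higher and 6 lower between lines uninjured, 0 lower at 14 d between lines, 1 higher and 7 lower at 2 d, 14 lower at 5 d and 8 lower at 14 d. RiboTag gave 1 lower at 70 d, 0 higher and 0 lower from P0 to P7, and 2 higher and 3 lower from P7 to P21. With a replicate block, RiboTag against flow-through at 70 d gave 5 lower, and there the block pairs libraries of an animal. Elsewhere the block joins animals that share only a number. It gave 1 lower between lines in flow-through, uninjured and at 14 d, and 1 higher from P21 to P63. The block changed no other count by over 1.5 times.

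Leaving out 1 library at a time gave these ranges. Between lines in RiboTag libraries, 16 to 21 were higher and 0 to 2 lower uninjured, and 10 to 16 higher at 14 d. In the interaction 3 to 7 were lower. In flow-through between lines, 0 to 2 were lower uninjured and 1 to 2 at 14 d (1 without Aldh1l1 replicate 2, 3 or 4 or mGfap replicate 3 or 4). RiboTag against flow-through gave 7 to 10 lower at 2 d (7 without RiboTag replicate 4) and 1 to 4 at 70 d (1 without flow-through replicate 1). Lower genes in the RiboTag course numbered 1 to 2 at 28 d (1 without replicate 1), 1 to 3 at 42 d (1 without replicate 3) and 1 to 2 at 70 d (1 without replicate 3). In flow-through, 1 to 2 were higher at 5 d (1 without uninjured replicate 3 or 4 or 5 d replicate 3) and 2 to 4 lower at 70 d (2 without uninjured replicate 4 or 70 d replicate 3 or 4). From P0 to P7, 1 to 10 were higher and 0 to 3 lower, from P7 to P21 0 to 1 were lower, and from P21 to P63 0 to 2 were higher. The causes were not tested. Genes under about 0.5 CPM rest on few counts, which limits them most in 2 d libraries.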
